A study of Mus musculus with 6 samples.

Results

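The 9 genes described here carry the synthesis, storage, uptake and breakdown of catecholamines: Th, Ddc, Dbh, Gch1, Slc18a2, Slc6a3, Slc6a2, Maoa and Maob. They were taken by symbol from the deposited RPKM table (reads per kilobase of gene per M reads of the library), which lists 23029 genes, and all 9 were found there, on 1 row each. RNA was profiled in cells that had been sorted into 3 subsets from the dorsal root ganglia (DRG) of mice, which house the cell bodies of somatosensory neurons. All groups share the GINIP+/mcherry genotype, in which the mCherry reporter marks the GINIP locus; the GINIP protein interacts with the inhibitory subunit G alpha i of G proteins. C-LTMRs, the low-threshold mechanoreceptors with unmyelinated C fibres, were sorted as IB4-GINIP+, DP cells (Mrgprd+ neurons) as IB4+GINIP+, and DN cells, the remainder, as IB4-GINIP-, where IB4 is a lectin that binds many non-peptidergic nociceptors. DN is therefore a mixture and not a cell type. Each subset had 2 libraries, so every mean ± SD has n = 2, and the labels do not say whether the replicates came from separate animals. The p-values thus measure only the spread between these libraries, which may be technical.

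Catecholamine synthesis starts with tyrosine hydroxylase (TH), which turns tyrosine into L-DOPA with tetrahydrobiopterin (BH4) as cofactor. Aromatic L-amino acid decarboxylase (gene Ddc) then makes dopamine, and dopamine beta-hydroxylase (Dbh) makes noradrenaline. The vesicular monoamine transporter VMAT2 (Slc18a2) loads the amines into vesicles, the plasma membrane transporters for dopamine (Slc6a3) and noradrenaline (Slc6a2) retrieve them, and the monoamine oxidases (Maoa, Maob) degrade them. In adult mouse DRG, Th is a widely used marker of C-LTMRs, while midbrain dopaminergic neurons express Th with Ddc, Slc18a2 and Slc6a3, and sympathetic neurons express Th with Ddc, Dbh, Slc18a2 and Slc6a2.

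The estimated depth was 32.2 to 42.0 M reads per library. Here and below, a gene is counted as higher or lower, or called, at an adjusted p under 0.05 and an absolute log2 difference of at least 1. Of the 8 C-LTMR markers, 6 were higher and 0 lower in C-LTMR than in DP, and of the 8 Mrgprd nociceptor markers, 0 were higher and 7 lower. Against DN, 6 C-LTMR markers were higher and 1 lower in DP, and 3 Mrgprd nociceptor markers were higher and 1 lower in C-LTMR. Gfra2 and Runx1 of the C-LTMR markers and Tmem45b of the Mrgprd nociceptor markers were not called between C-LTMR and DP. How completely the sort separated the subsets was not tested. Mrgprd nociceptor markers summed to 486 and 448 RPKM in C-LTMR, 1475 and 1518 in DP, and 24.3 and 28.4 in DN. Their median log2 difference between C-LTMR and DP was -6.07, far wider than these sums show, because a sum follows its genes of highest level. The replicates of each subset differed by more than sampling noise. The measure was the squared difference of the replicates' deposited TMM-normalized signal divided by its sum, in 6493 to 6562 genes of higher signal. Its median was 6.36 for C-LTMR, 3.75 for DP and 15.1 for DN, where counting noise alone gives less than 1 on read counts.

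Promoters of Th and Ddc, the first enzymes of the pathway, are shown because in DN Th was lowest and Ddc highest. Between C-LTMR and DP, Th was called and Ddc was not. The 250 bases before each gene's start are given 5′ to 3′ on the gene's strand, from RefSeq on GRCm38.p6, with matches to the searched motifs in capitals. Slc17a8, the gene whose pattern was nearest to that of Th, is shown with them. The stretch shown for Th lies at chr7:142899996-142900245 on the minus strand, that of Ddc (the first of its listed starts) at chr11:11898145-11898394 on the minus strand, and that of Slc17a8 (the first of its listed starts) at chr10:89621250-89621499 on the minus strand.
Th: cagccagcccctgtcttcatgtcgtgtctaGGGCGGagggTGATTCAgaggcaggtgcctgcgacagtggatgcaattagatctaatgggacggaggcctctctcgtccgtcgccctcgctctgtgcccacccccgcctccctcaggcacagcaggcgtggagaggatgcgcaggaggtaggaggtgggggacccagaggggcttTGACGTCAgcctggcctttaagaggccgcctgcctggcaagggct
Ddc: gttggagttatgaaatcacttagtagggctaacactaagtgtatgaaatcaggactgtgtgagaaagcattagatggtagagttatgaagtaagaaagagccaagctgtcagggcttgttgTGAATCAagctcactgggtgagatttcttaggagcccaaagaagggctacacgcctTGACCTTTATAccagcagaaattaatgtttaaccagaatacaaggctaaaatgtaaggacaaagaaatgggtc
Slc17a8: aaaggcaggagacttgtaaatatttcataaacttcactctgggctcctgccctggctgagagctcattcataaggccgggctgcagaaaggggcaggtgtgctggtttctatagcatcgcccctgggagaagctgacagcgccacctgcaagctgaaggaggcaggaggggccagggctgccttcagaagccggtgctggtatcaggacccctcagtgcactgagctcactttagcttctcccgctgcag

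Promoter windows of 300 bases, from 250 before to 50 after the start, were searched on both strands for 6 motifs: the cyclic AMP response element (TGACGTCA), the TATA box (TATAAA), the NGFI-B response element bound by Nr4a factors (AAAGGTCA), the AP-1 site (TGANTCA), the CCAAT box (CCAAT) and the GC box (GGGCGG). The capitals in the Th sequence are, in order, a GC box 220 to 215 bases before the start, an AP-1 site 210 to 204 before it, and a cyclic AMP response element 45 to 38 before it. The cyclic AMP response element occurred in 588 of 32851 promoters (1.79%), the AP-1 site in 7.81% and the GC box in 35.7%. At the first of its listed starts, Ddc had an AP-1 site 129 to 123 bases before the start. An NGFI-B element (1.51% of promoters) at 73 to 66 overlapped a TATA box (13.6%) at 68 to 63. The second listed start of Ddc had none of these, only a CCAAT box (37.4% of promoters) 55 to 51 bases before it. Which start these cells use was not tested. Slc17a8 had 0 matches. Of the 7 pathway genes with a promoter entry, the cyclic AMP response element was found in Th and in Slc18a2, where it straddled the start. It was found in 0 of 9 of the genes nearest to Th in pattern. These matches describe letters and not bound sites.

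Th stood far above the other pathway genes in C-LTMR cells and was lower by more than an order of magnitude in both other subsets. The gene (Entrez 21823, chr7:142892776-142899966, GRCm38) was at 1017 and 1038 RPKM in the C-LTMR libraries, 48.8 and 61.7 RPKM in the DP libraries, and 31.7 and 14.2 RPKM in the DN libraries. The groups did not overlap, both C-LTMR libraries were high, and the ratio between the libraries of a subset was widest in DN. In bulk RNA of this kind, fewer cells that express a gene and less RNA per cell cannot be told apart. Among the 23029 genes of the table, Th ranked 41 and 37 in the C-LTMR libraries, 1721 and 1413 in the DP libraries, and 2584 and 4642 in the DN libraries. It made up 96.0% of the summed RPKM of the 9 genes in each C-LTMR library, 66.2% and 70.7% in DP, and 49.4% and 24.7% in DN.

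The mean Th level was 1027 ± 15.1 RPKM in C-LTMR libraries, 55.3 ± 9.14 RPKM in DP libraries and 23.0 ± 12.4 RPKM in DN libraries. The C-LTMR mean was 18.6-fold the DP mean and 44.8-fold the DN mean. On the log2(RPKM + 0.1) scale, which is used for all fold changes here and understates those of low genes, Th differed by 4.22 (SE 0.34) between C-LTMR and DP, with a Benjamini-Hochberg adjusted p of 0.000262 in a limma fit over all genes tested. Between C-LTMR and DN it differed by 5.59 (adjusted p = 3.28e-05). Th had the second largest rise over DP among the 15544 genes tested, after Ceacam10, rank 35 over DN, and rank 812 in DP over DN. The genes that flank Th were near 0, so its level was not shared by its neighbours: Ins2 was listed at 0 in all C-LTMR and DP libraries, and Ascl2 did not pass 0.08 RPKM in any library.

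Th was also higher in DP than in DN, by 1.37 on the log2 scale (adjusted p = 0.0123), and the DP mean was 2.41-fold the DN mean. The call of this difference rested on single libraries: without DN replicate 2 the difference was 0.79 (adjusted p = 0.0161), and without DP replicate 2 it was 1.20 (adjusted p = 0.0744). Scaled to pan-sensory-neuron genes, the difference was 0.95 (adjusted p = 0.0195). The sum of the C-LTMR markers was also higher in DP than in DN, at 224 and 222 RPKM against 38.3 and 36.5. Their median log2 difference was 2.18 over the 8, of which 6 were higher and 1 lower. In C-LTMR they summed to 555 and 550 RPKM, where 6 were higher and 0 lower than in DP, with Gfra2 and Runx1 not called. The median log2 difference of the 8 between C-LTMR and DP was 3.36, wider than the sums show, because a sum follows its genes of highest level. Slc17a8, among the 6, was at 1.12 and 1.31 RPKM in DP against 17.1 and 19.1 in C-LTMR. The part of C-LTMRs in the DP level of Th was not tested.

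**Figure D1:**
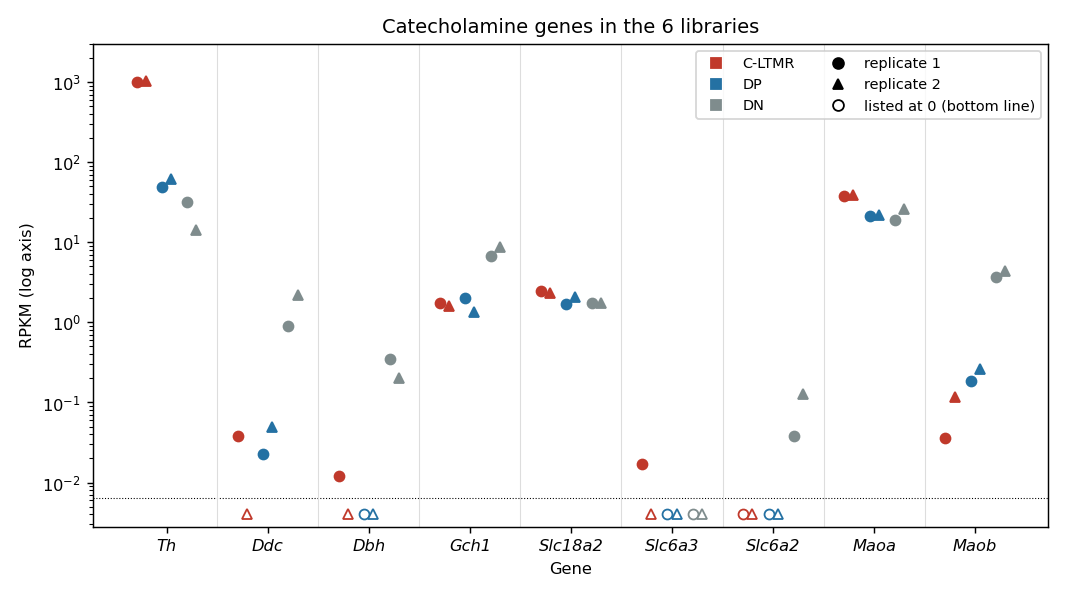
RPKM of the 9 pathway genes in each of the 6 libraries, grouped by subset (C-LTMR, DP and DN), on a log axis, with values listed at 0 as open symbols under the dotted line. Th lies between 1017 and 1038 RPKM in C-LTMR, while Ddc, Dbh, Slc6a3 and Slc6a2 lie at or below 0.0378 there.

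The enzymes downstream of TH were at or near 0 in the libraries where Th was highest. Ddc (Entrez 13195, chromosome 11) was at 0.0378 and 0 RPKM in C-LTMR, 0.0228 and 0.050 in DP, and 0.897 and 2.18 in DN. At the estimated depth, 3 reads of Ddc correspond to 0.0160 to 0.0209 RPKM, so the C-LTMR and DP values rest on fewer than 10 reads each. Both DN libraries lay above all others, and C-LTMR and DP overlapped. Only the DN libraries reached the 0.1 RPKM that the fit required in at least 2 libraries. Ddc was thus tested only through the group where it was high, and could be called against DN only as lower. Ddc was lower in C-LTMR than in DN by 3.68 on the log2 scale (log2 fold change -3.68, SE 0.41, adjusted p = 0.000396) and lower in DP than in DN (-3.47, adjusted p = 0.000508), while the C-LTMR and DP values did not differ beyond their spread (-0.21, adjusted p = 0.757). The size rested on single DN libraries: in C-LTMR against DN it was -4.28 without DN replicate 1 and -3.09 without DN replicate 2, and in DP against DN -4.07 and -2.88, and the call held in each case.

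Dbh, which makes noradrenaline from dopamine, was at 0.0120 and 0 RPKM in C-LTMR, listed at 0 in both DP libraries, and at 0.346 and 0.201 in DN. The C-LTMR and DP values lay below the level of 3 reads, which was 0.0265 to 0.0346 RPKM over the libraries, so absence cannot be told from a level below that. Both DN libraries lay above it, and Dbh, like Ddc, entered the fit only through them, so it could be called against DN only as lower. The fitted differences, -1.79 for C-LTMR against DN (adjusted p = 0.0014) and -1.87 for DP against DN (adjusted p = 0.0011), passed the threshold but depend on the pseudocount: with 1 RPKM they were -0.34 and -0.35, below the fold criterion.

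The ratio of Th to Ddc put the same values on 1 scale. It was 2145 and 1235 in the DP libraries against 35.3 and 6.51 in the DN libraries. In C-LTMR it was 26920 in replicate 1, and replicate 2 had 0 for Ddc. The C-LTMR and DP ratios rest on a few reads of Ddc and give only the order of size.

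Gch1 encodes GTP cyclohydrolase 1, the first and rate-limiting enzyme of BH4 synthesis, and did not follow Th. It was at 1.74 and 1.6 RPKM in C-LTMR, 2.03 and 1.33 in DP, and 6.68 and 8.86 in DN. The DN libraries were the highest, and the DP libraries spanned those of C-LTMR. Gch1 was lower in C-LTMR than in DN (log2 fold change -2.14, SE 0.23, adjusted p = 0.00036) and lower in DP than in DN (-2.16, adjusted p = 0.000345). C-LTMR and DP did not differ beyond their spread (0.02, adjusted p = 0.966). The ratio of Th to Gch1 was 584 and 647 in C-LTMR, 24.0 and 46.4 in DP, and 4.75 and 1.6 in DN.

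Genes of BH4 synthesis and recycling, Gch1 among them, moved in both directions against DP. Of 8 tested, 2 were higher and 1 lower in C-LTMR than in DP, where 8.52% of all genes were higher and 6.65% lower (list median -0.18, all genes 0.05). Against DN, 0 were higher and 3 lower, where 8.58% of all genes were higher and 23.5% lower (-0.39, all genes -0.10). Pcbd1, which dehydrates the spent cofactor, was at 202 and 227 RPKM in C-LTMR and 92.4 and 90.1 in DP, a log2 rise of 1.23 (adjusted p = 0.000568). Pts, the second enzyme of BH4 synthesis, also rose over DP, by 1.12 (adjusted p = 0.00071), with means of 30.9 ± 2.27 in C-LTMR and 14.2 ± 0.931 RPKM in DP. Its DN mean of 33.3 ± 3.93 RPKM was close to that of C-LTMR. Qdpr, which regenerates BH4, was lower in C-LTMR at 144 and 119 RPKM than in DP at 305 and 278 RPKM (-1.15, adjusted p = 0.00117), and lower than in DN (-1.13, adjusted p = 0.00052). The call against DN was lost without C-LTMR replicate 2 (-0.994) and without DN replicate 1 (-0.999), both just under the fold criterion. Gchfr, the feedback regulator of GTP cyclohydrolase, was lower than in DN as well (-1.26, adjusted p = 0.0116), a call lost without C-LTMR replicate 2 (-0.98, adjusted p = 0.0676), without DN replicate 1 (-0.88, adjusted p = 0.0601), with a pseudocount of 1 RPKM (-0.82) and under quantile normalization (-0.61).

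The vesicular transporter Slc18a2 was low and nearly flat, at 2.44 and 2.36 RPKM in C-LTMR, 1.71 and 2.05 in DP, and 1.75 and 1.76 in DN. Both C-LTMR libraries were the highest, by a small margin. The log2 differences were 0.34 from DP (adjusted p = 0.157) and 0.43 from DN (adjusted p = 0.0509), neither past the threshold. Under quantile normalization the difference between C-LTMR and DN was 1.04 (adjusted p = 0.00149). An antisense gene, Gm29261, overlaps the exons of Slc18a2, and whether the reads were counted by strand is not given in the sources used here, so the reads of the pair cannot be told apart. Slc18a2 is also expressed by mast cells. Their defining markers Mcpt4, Tpsab1 and Fcer1a were listed at 0 in all 6 libraries, and the 8 markers summed to 1.34 and 1.89 RPKM in C-LTMR, 1.28 and 1.55 in DP, and 29.5 and 28.0 in DN, where nearly all of it was Kit. The mast cell protease gene Cpa3 was higher in C-LTMR, at 0.643 and 0.575 RPKM, than in DP, at 0.154 and 0.090, and DN, at 0.0985 and 0.107 (1.69, adjusted p = 0.00233, and 1.81, adjusted p = 0.000719). Cma1 and Ms4a2 did not pass 0.08 RPKM in C-LTMR and DP and were listed at 0 in DN. The part of such cells in the Slc18a2 level was not tested.

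The plasma membrane transporters were listed at 0 or barely detected. Slc6a3 was listed at 0 in 5 libraries and at 0.0169 RPKM, about 2 reads, in C-LTMR replicate 1. Slc6a2 was listed at 0 in all C-LTMR and DP libraries and at 0.0379 and 0.128 RPKM in DN. Genes entered the fit when at least 2 libraries reached 0.1 RPKM, which these 2 did not, and they were not tested. At this depth, 3 reads would correspond to 0.0207 to 0.0269 RPKM for Slc6a3 and 0.0114 to 0.0148 RPKM for Slc6a2.

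The monoamine oxidases divided the subsets differently. Maoa, the isoform that prefers serotonin and noradrenaline, was at 38.0 and 38.9 RPKM in C-LTMR, 21.0 and 21.9 in DP, and 19.2 and 25.8 in DN. The C-LTMR libraries were above all others, and DP lay within the range of DN. The Maoa mean in C-LTMR was 1.79-fold that in DP (log2 0.84, SE 0.14, adjusted p = 0.00564), and the log2 difference from DN was 0.79 (adjusted p = 0.00331), both below the fold criterion. Maob, which is abundant in glia, was at 0.0364 and 0.116 RPKM in C-LTMR, 0.187 and 0.260 in DP, and 3.64 and 4.42 in DN. No groups overlapped. Maob was lower in C-LTMR than in DN (log2 -4.58, SE 0.28, adjusted p = 3.38e-05) and in DP than in DN (-3.68, adjusted p = 8.11e-05). The difference between C-LTMR and DP was -0.91 (adjusted p = 0.0538), and without C-LTMR replicate 2 it was -1.24 (adjusted p = 0.0367). The ratio of Maoa to Maob was 1044 and 337 in C-LTMR, 112 and 84.3 in DP, and 5.28 and 5.84 in DN. At the estimated depth, Maob had about 3.46 and 10.4 reads in the C-LTMR libraries. The C-LTMR ratios thus give only the order of size, and the Maob difference from DP rests on few reads.

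**Figure D2:**
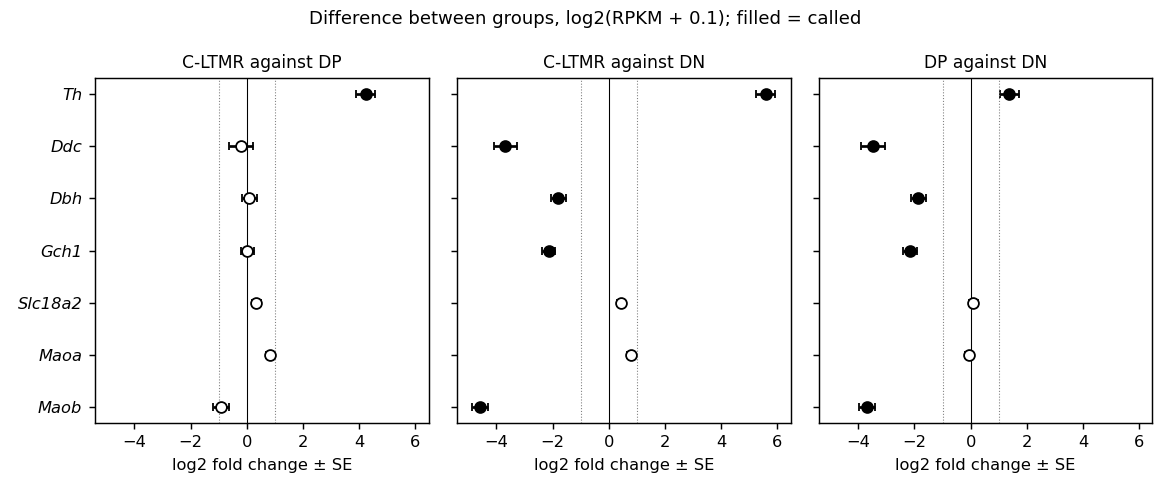
Log2 differences of the tested pathway genes with their standard errors in the 3 comparisons, the subset named first over the second, with filled points for genes called and dotted lines at a log2 difference of 1 in either direction. Th rises by 4.22 over DP and 5.59 over DN in C-LTMR, while Maob falls by 4.58 and Ddc by 3.68 against DN.

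Over the 7 pathway genes tested, 1 was called higher and 0 lower in C-LTMR than in DP, where 15.2% of all genes tested were called (8.52% higher and 6.65% lower). Against DN, 1 was higher and 4 lower in C-LTMR, where 32.1% of genes were called (8.58% higher, 23.5% lower). In DP against DN, 1 was higher and 4 lower, where 33.3% were called (7.75% higher, 25.5% lower). The 4 lower in each comparison with DN include Ddc and Dbh. Both entered the fit only through the DN libraries, so they could count only as lower. The C-LTMR against DN and DP against DN comparisons share the DN libraries. The balance of directions over all genes depends on the scaling: 26.7% of the genes called in C-LTMR against DN were higher, and 47.5% under quantile normalization. In DP against DN these shares were 23.3% and 46.8%. The median log2 differences of the 7 were 0.08, -1.79 and -1.87 in these comparisons, against 0.05, -0.10 and -0.20 over all genes. Each of these medians of the 7 was the value of Dbh, whose differences from DN depend on the pseudocount.

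The genes that were higher in DN moved with markers of other cells. All 10 markers of satellite glia and Schwann cells were lower in C-LTMR than in DN and in DP than in DN, and of the 12 markers of endothelium, pericytes and fibroblasts, 11 were lower in C-LTMR than in DN and 10 in DP than in DN. The summed glial level was 1190 and 2137 RPKM in C-LTMR, 763 and 1284 in DP, and 8068 and 17863 in DN. The endothelial sum was 84.3 and 88.1 in C-LTMR, most of it Rgs5, 25.0 and 25.9 in DP, and 471 and 684 in DN. Peptidergic nociceptor markers summed to 1317 and 1233 RPKM in C-LTMR, 914 and 812 in DP, and 8632 and 7823 in DN. The part of these cells in the DN levels of Ddc, Dbh, Gch1 and Maob was not tested.

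Sympathetic neurons express Th together with Ddc and Dbh. Their 9 markers summed to 1.72 and 0.445 RPKM in C-LTMR, 5.60 and 2.96 in DP, and 3.91 and 3.66 in DN. Of the 4 tested, 0 were higher in C-LTMR, while Ecel1 was lower than in DP and Chrnb4 lower than in DN. Over all genes, 8.52% were higher and 6.65% lower in C-LTMR than in DP, and 8.58% and 23.5% than in DN. With 4 genes, the counts are too small to be told from these shares. The sympathetic regulators Phox2a, Hand1, Hand2 and Gata3 were listed at 0 in both C-LTMR libraries. In DN replicate 2, where Ddc and Slc6a2 were higher than in replicate 1, Phox2a was at 0.327 RPKM, against 0.0686 in DN replicate 1. Th (14.2 against 31.7 RPKM) and Dbh (0.201 against 0.346 RPKM) were lower in DN replicate 2. Hand1 and Hand2 were listed at 0 in DN replicate 2 but not in DN replicate 1. The part of sympathetic neurons in those values was not tested. Macrophage and neutrophil markers summed to 5.40 and 9.83 RPKM in C-LTMR, 231 and 259 in DP, and 61.2 and 114 in DN, an order unlike that of any pathway gene.

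**Figure D3:**
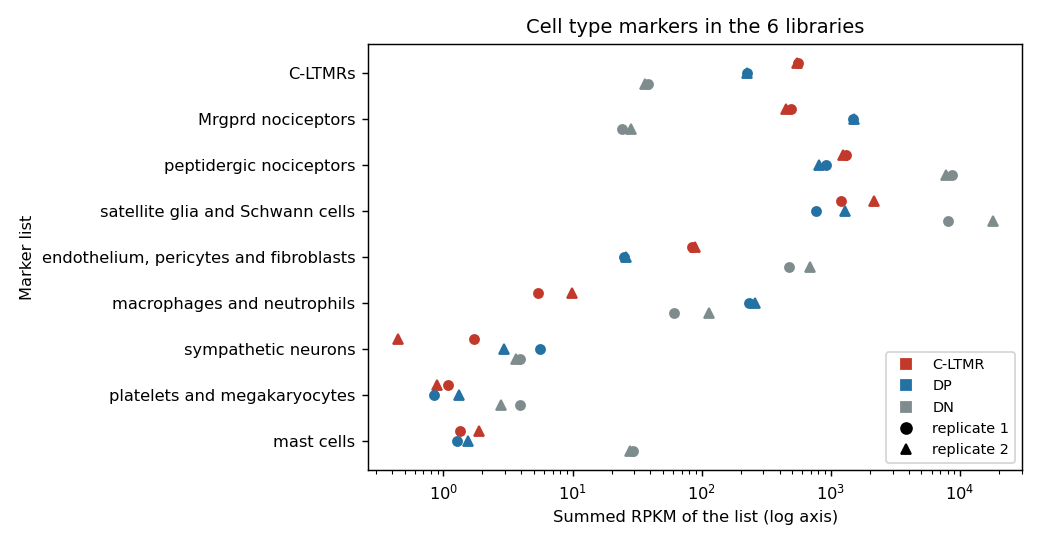
Summed RPKM of 9 cell type marker lists in the 6 libraries, on a log axis, coloured by subset and with a symbol for each replicate. Glial markers sum to 2137 RPKM or less in the C-LTMR and DP libraries, and to 8068 and 17863 RPKM in DN.

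The counts of the further lists are to be read against the shares of all genes called, 15.2% in C-LTMR against DP and 32.1% in C-LTMR against DN. Among genes of precursor and cofactor supply, 0 were higher and 1 lower of 8 tested in C-LTMR against DP (median -0.22), and 1 was higher and 3 lower against DN (median -0.80). Pdxk, the kinase that makes the pyridoxal phosphate cofactor of Ddc, was at 2.65 and 2.35 RPKM in C-LTMR, 6.16 and 5.70 in DP, and 5.95 and 6.01 in DN. It was lower in C-LTMR than in DP (-1.21, adjusted p = 0.000677), a call lost with a pseudocount of 1 RPKM (-0.98). The amino acid carrier subunits Slc3a2 (-1.49, adjusted p = 0.000122) and Slc7a5 (-1.23) were lower in C-LTMR than in DN, and Slc7a8, another amino acid carrier, was higher (1.30, adjusted p = 0.000939). The Slc7a8 call was lost with a pseudocount of 1 RPKM (0.95) and when scaled to pan-sensory-neuron genes (0.88).

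Of the genes for other monoamines, 6 of 10 were tested, and 2 were higher and 2 lower in C-LTMR than in DP (median 0.34). Tph2, the neuronal tryptophan hydroxylase of serotonin synthesis, which uses the same cofactor and the same decarboxylase as TH, was at 2.81 and 2.41 RPKM in C-LTMR, 0.335 and 0.306 in DP, and 0.625 and 0.330 in DN. Both C-LTMR libraries were above all others, and the log2 rises were 2.69 over DP (adjusted p = 0.000678) and 2.28 over DN (adjusted p = 0.000565). Hdc, which makes histamine, rose by 1.23 over DP (adjusted p = 0.00843), with means of 2.07 ± 0.132 in C-LTMR and 0.841 ± 0.238 RPKM in DP. The low-affinity monoamine transporter Slc29a4 was lower in C-LTMR, at 4.10 and 3.21 RPKM, than in DP, at 7.92 and 8.13, and DN, at 21.0 and 16.2 (-1.12 and -2.32). Tph1 stayed below 0.2 RPKM in all libraries. The calls against DP were lost without C-LTMR replicate 1 for Hdc (1.17, adjusted p = 0.0544) and Tph1 (-1.09, adjusted p = 0.0529), without DP replicate 2 for Hdc (0.97) and Tph1 (-1.12, adjusted p = 0.0545), and without C-LTMR replicate 2 for Slc29a4 (-0.95). With a pseudocount of 1 RPKM they were 0.74 for Hdc, -0.20 for Tph1 and -0.96 for Slc29a4.

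Of 10 further breakdown enzymes, 1 was higher and 1 lower in C-LTMR than in DP, and 0 were higher and 4 lower than in DN (median -0.46, all genes -0.10). The sulfotransferase gene Sult1a1 had the widest difference, at 0.291 and 0.325 RPKM in C-LTMR against 18.4 and 21.2 in DN (-5.61, adjusted p = 4.71e-06). Hnmt, which inactivates histamine, was lower than in DN as well (-4.46, adjusted p = 4.25e-05), as was the aldehyde dehydrogenase gene Aldh2 (-2.08, adjusted p = 2.06e-05). The calls against DP were those of Akr1b3 (1.22) and Hnmt (-1.15). Both were lost with a pseudocount of 1 RPKM (0.23 and -0.62) and in the compared libraries alone (adjusted p = 0.0658 and 0.0727).

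Vesicle genes and TH regulators were mixed. Of 12 dense core vesicle genes, 2 were higher and 1 lower in C-LTMR than in DP (median 0.10), and 4 were higher and 1 lower than in DN (median 0.33). Chgb, a granin, rose by 1.32 over DP (adjusted p = 0.000441), at 52.9 and 57.8 RPKM in C-LTMR, 21.2 and 23.0 in DP, and 53.2 and 43.0 in DN. Scg2, another granin, was lower in C-LTMR than in DN (-3.33, adjusted p = 2.17e-05), and Scg3, of the same family, was higher (2.45, adjusted p = 2.19e-05). Of 15 genes for TH-regulating kinases, phosphatases and 14-3-3 proteins, 1 was higher and 0 lower than in DP, namely Camk2b, a calcium/calmodulin-dependent kinase subunit, at 6.43 and 7.04 RPKM in C-LTMR, 1.42 and 1.82 in DP, and 17.9 and 12.7 in DN. Its log2 differences were 2.0 from DP (adjusted p = 0.000602) and -1.15 from DN (adjusted p = 0.00281), the second lost without DN replicate 1 (-0.90, adjusted p = 0.0166).

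The same lists in DP against DN showed the DP side of these differences. Here 7.75% of all genes were higher and 25.5% lower. Of the 8 BH4 genes, 0 were higher and 3 lower in DP, with Pts lower by 1.22 on the log2 scale (log2 fold change -1.22, adjusted p = 0.000197) besides Gch1 and Gchfr. The Gchfr call was lost with a pseudocount of 1 RPKM (-0.90) and under quantile normalization (-0.62). Of the dense core vesicle genes, 4 were higher and 2 lower. Scg3 was at 1593 and 1398 RPKM in DP against 157 and 183 in DN (3.14, adjusted p = 1.17e-05), while Scg2 was at 47.9 and 37.6 in DP against 494 and 386 in DN (-3.36, adjusted p = 2.32e-05). Of the TH regulators, 2 were higher and 3 lower, the widest being Camk2b (-3.15, adjusted p = 3.98e-05).

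**Figure D4:**
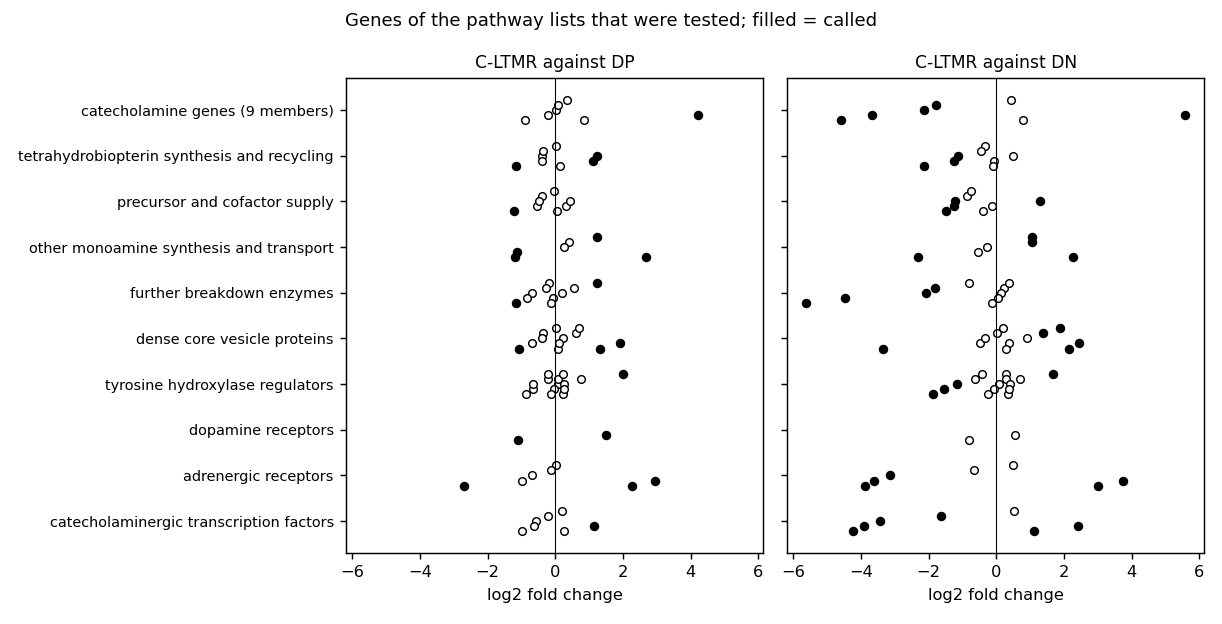
Log2 difference of each tested gene (1 point a gene) in the 10 lists of pathway genes, for C-LTMR against DP and C-LTMR against DN, with filled points for genes called and open points for the others; vertical spacing within a list only separates points. Of the 8 genes of BH4 synthesis and recycling, 2 were higher and 1 lower in C-LTMR than in DP.

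Receptors for the products differed by type rather than as a family. Of 7 adrenergic receptors tested, 2 were higher and 1 lower in C-LTMR than in DP, and 2 were higher and 3 lower than in DN. Adrb1 was at 5.94 and 6.13 RPKM in C-LTMR, 1.13 and 1.24 in DP, and 0.496 and 0.245 in DN, with log2 rises of 2.26 over DP (adjusted p = 0.00126) and 3.76 over DN (adjusted p = 5.92e-05). Adra1d was at 0.836 and 0.926 RPKM in C-LTMR and below 0.06 in every DP and DN library. Adra2b had its level in DP, at 1.20 and 1.19 RPKM, against 0.0816 and 0.117 in C-LTMR (C-LTMR against DP -2.70, adjusted p = 0.000251). With a pseudocount of 1 RPKM, Adra1d and Adra2b fell below the fold criterion, at 0.87 and -0.997 for C-LTMR against DP. In DP against DN, Adra2b differed by 3.19 (adjusted p = 4.94e-05) and Adrb1 by 1.5 (adjusted p = 0.00302), the second lost with a pseudocount of 1 RPKM (0.68). Adra2a and Adra2c were lower in C-LTMR than in DN, by log2 differences of -3.60 and -3.13. Dopamine receptors were all low: Drd2 was at 0.175 and 0.193 RPKM in C-LTMR, listed at 0 in both DP libraries, and at 0.103 and 0.0860 in DN, and Drd1a did not pass 0.2 RPKM in any library.

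Transcription factors known from catecholaminergic neurons were called higher for 1 and lower for 0 of 7 tested in C-LTMR against DP, and higher for 2 and lower for 4 against DN (median -1.64, all genes -0.10). Insm1, a zinc finger factor of neuroendocrine cells, was at 11.0 and 11.1 RPKM in C-LTMR, 4.79 and 5.02 in DP, and 2.29 and 1.72 in DN, in the order of Th. It rose by 1.16 over DP (adjusted p = 0.00212) and 2.42 over DN (adjusted p = 3.99e-05), and the call over DP was lost under quantile normalization (0.97). Nr4a2, a nuclear receptor that midbrain dopaminergic neurons need for Th expression, had the opposite order, at 2.13 and 2.88 RPKM in C-LTMR, 5.04 and 5.05 in DP, and 45.5 and 51.3 in DN (C-LTMR against DN -4.23, adjusted p = 7.12e-06). Gata2 (-3.91) and Nr4a1 (-3.44), an immediate early gene, were lower in C-LTMR than in DN as well.

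The genes with the pattern most like that of Th were found by centring each tested gene's log2(RPKM + 0.1) on its own mean and taking the root mean square difference from Th over the 6 libraries. The nearest were Slc17a8 (0.19), which encodes the vesicular glutamate transporter VGLUT3, Tmem132c (0.27), Defb42 (0.30), a beta-defensin, Tmem72 (0.34) and Chrna4 (0.34), a nicotinic acetylcholine receptor subunit. Dgkk (0.38), a diacylglycerol kinase, Eppin (0.39), Htr1d (0.41), a serotonin receptor, Nmu (0.42), the neuropeptide neuromedin U, and Gnb3 (0.42), a G protein subunit, followed. Slc17a8 was at 17.1 and 19.1 RPKM in C-LTMR, 1.12 and 1.31 in DP, and 0.529 and 0.216 in DN. The genes were picked over all 6 libraries, so their likeness to Th, the order of the DN replicates included, follows from the choice. Chrna4 was at 8.28 and 10.9 RPKM in C-LTMR, 0.541 and 0.694 in DP, and 0.208 and 0.147 in DN. These 10 genes had the pattern of Th at a level far below it: none passed 40 RPKM in C-LTMR.

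**Figure D5:**
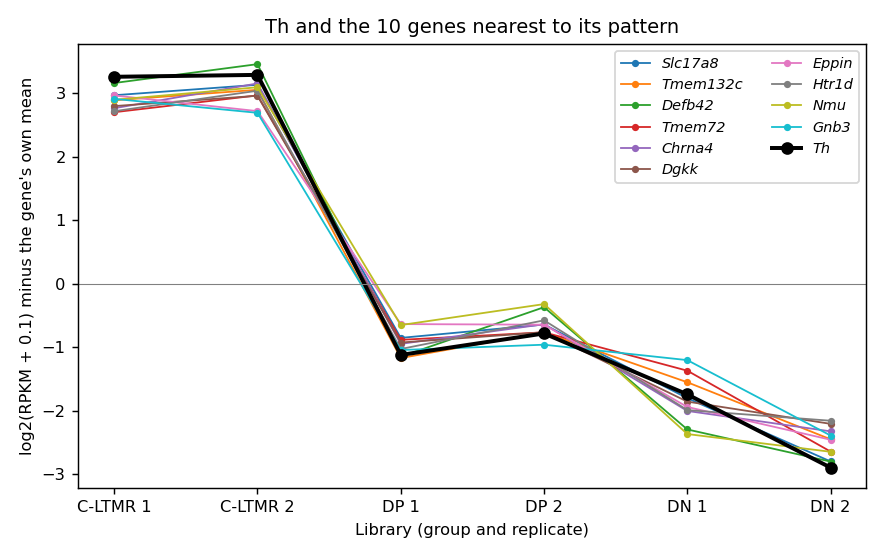
Centred log2(RPKM + 0.1) of Th and of the 10 genes nearest to it in each of the 6 libraries. All are high in both C-LTMR libraries, lower in DP and lowest in DN, and Slc17a8 departs least from Th, at 0.19. The 10 genes were picked for this likeness.

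Genes nearest to the other called pathway genes were high in DN. For Ddc they were Tnfrsf10b (0.14), a death receptor, Notch4 (0.21), an endothelial Notch receptor, and Lpar6 (0.22), a lysophosphatidic acid receptor. For Gch1 they were Col5a3 (0.10), Snx33 (0.13) and H2-Q5 (0.14). For Maob they were Plekhb1 (0.13), 6530418L21Rik (0.14) and Ier5 (0.16), and for Dbh, near 0 outside DN, Mum1l1 (0.10), Ankrd45 (0.10) and Mt4 (0.10). Plekhb1 was at 3.67 and 6.11 RPKM in C-LTMR, 6.37 and 8.94 in DP, and 84.6 and 110 in DN.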

How the data were processed

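Sorted cells were lysed, and RNA (50 ng) was amplified before TruSeq libraries were made, per the labels' protocols. Per the submitters' processing notes, CASAVA 1.8.2, edgeR 2.6.2 and GRCm38 (mm10) were used. Neither aligner, annotation nor strandedness is given in the sources used here. Deposited RPKM values of 23029 genes are the main measurement. The deposited TMM-normalized signal of 6620 genes holds only Th and Maoa of the 9 and served as an alternative.

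Amplification with in vitro transcription can favour transcript 3′ ends, and RPKM divides by the whole gene length, so levels between genes are approximate. Depth, which the files do not state, was estimated from low RPKM values that pile up at 1 read over the exon length. Levels of 3 reads cover counting error only. A gene was kept with at least 0.1 RPKM in at least 2 libraries (15544 genes). log2(RPKM + 0.1) was fitted over all 6 libraries with limma 3.58.1 (lmFit, contrasts.fit, eBayes with a trend) in R 4.3.3, with Benjamini-Hochberg adjustment over all genes kept. The fit was tested on simulated data in which only genes with more reads changed and all groups had the same spread. That test does not cover genes with few reads or the wider spread in DN. Python 3.11.15, pandas 2.3.3 and numpy 2.4.6 were used for descriptions, and matplotlib 3.10.9 for plots.

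All 9 genes are named, and the 7 tested were fitted in each comparison. Differences of these 7 that are not given above were not called. From each further list, at most 4 called genes per comparison with the widest log2 differences were eligible to be named, besides the 10 genes nearest to Th and the 3 nearest to each other called gene. Some genes that the rule names are not reported here. The genes and lists were chosen with earlier results of these data known. Alternatives were other pseudocounts, filters, scalings and the TMM table, the compared libraries alone, a replicate block, and leaving out each library.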

Additional observations from a re-analysis of the deposited data

How the results depend on the processing

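No called result reversed under any alternative run, and of the values of called list genes under alternatives, 1152 kept the call and 84 lost it. With a pseudocount of 1 RPKM, 1192 genes were called in C-LTMR against DP, 3012 in C-LTMR against DN and 3140 in DP against DN, against 2358, 4993 and 5172 with 0.1 RPKM. The TMM table, which holds fewer genes, gave 843, 1562 and 1645, and 1 pathway gene called in C-LTMR against DN and 1 in DP against DN of the 2 it holds. A filter of at least 1 RPKM, which removes Ddc and Dbh by construction, left 3 pathway genes called in C-LTMR against DN and 3 in DP against DN. Th in DP over DN was 0.95 when scaled to pan-sensory-neuron genes, and 0.79 to 1.94 with each library left out in turn; the cause was not tested. With each library left out, the pathway genes called in C-LTMR against DP numbered 1 to 2. A group left with 1 library was assumed to vary like the others. Scaling moved the median of all genes in C-LTMR against DN to 0.16 (quantile) or -0.52 (pan-sensory-neuron genes), against -0.10, and in DP against DN to 0.14 or -0.59, against -0.20. Scaled to pan-sensory-neuron genes, 15.6% of the genes called in C-LTMR against DN and 13.3% in DP against DN were higher.

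Same-numbered libraries had replicate deviations that correlated at 0.46 (C-LTMR and DP), 0.33 (C-LTMR and DN) and 0.12 (DP and DN). With 2 numbers this does not establish pairs. With the replicate block, 2442, 5018 and 5208 genes were called in the 3 comparisons, and the call of each of the 7 pathway genes tested was the same, while Akr1b3 in C-LTMR against DP lost its call. Depth limits Dbh, Slc6a3 and Slc6a2, which lay at or below the level of 3 reads in C-LTMR and DP. It also limits Ddc in C-LTMR and DP and Maob in C-LTMR, which rested on few reads.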
